A study of Mus musculus with 12 samples.

Results

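Peroxisome biogenesis and peroxisomal lipid oxidation were examined through 32 genes, taken by symbol from a list of 54356 genes with transcripts in the quantification. Of these, 13 encode peroxins (Pex proteins, which build the organelle and import its proteins), 15 encode enzymes and 4 encode membrane proteins of the peroxisome. The tissue was interscapular brown adipose tissue of male wild type C57BL/6N mice aged 20 weeks, and the animals form 2 groups, ctrl and cold, with 6 animals each and 1 poly(A) RNA library per animal. The description of the treatment, 24 h alone in a cage at 4 °C, is attached to the samples of both groups, so the treatment label (ctrl or cold) was used for the grouping and the sources used here do not say how the ctrl animals were caged on the last day. General housing was at 22 to 24 °C with a light phase of 12 h. The series text speaks of 3 cold animals whereas the labels give 6, and all 6 were used. The question asked of the data was which of the 32 genes differed between cold and ctrl, and how the Pex genes lay beside the enzymes.

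Peroxisomes are single-membrane organelles that shorten very long-chain and branched fatty acids by beta-oxidation and alpha-oxidation, break down the hydrogen peroxide formed in doing so, and make the first steps of ether lipids (plasmalogens). Matrix proteins are made in the cytosol and enter through import receptors that recognise a C-terminal signal (PTS1, read by Pex5) or an N-terminal signal (PTS2, read by Pex7 together with Pex5). Brown adipocytes are rich in peroxisomes, and cold exposure, through noradrenaline and cAMP, is known to raise fatty acid oxidation and heat production in these cells.

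Libraries held between 16.0 and 31.4 M estimated reads. The animal cold 4 had the deepest library and the lowest mean correlation with its own group (0.974, against 0.976 to 0.985 in the other 11). It gave the highest value of the cold group for 17 and the lowest for 6 of the 32 genes. Other animals also lay often at the edge of their group: cold 15 was the lowest for 17 and the highest for 2, ctrl 9 the lowest for 18, and ctrl 14 the highest for 12 and the lowest for 5. The summed level of 7 adipocyte markers ran from 19562 to 27201 CPM in ctrl and from 24247 to 33261 CPM in cold. The animal cold 4 had the highest sum. CPM is the count of a gene's reads per 1 M reads, with each library's size rescaled by TMM, the trimmed-mean scaling of edgeR. The markers were Ucp1, Cidea, Adipoq, Pparg, Plin1, Fabp4 and Cox7a1. Of the 7, 2 were higher and 1 lower in cold. The sum does not give the level of each marker and does not tell brown from white fat. The tissue label is interscapular brown adipose tissue, whereas the text on RNA extraction names eWAT, and the label was followed. The marker sum was not used to decide between them. The sum of 10 skeletal muscle markers ran from 130 to 1697 CPM in ctrl and from 182 to 5353 CPM in cold, with cold 15 the highest, and none of the 10 passed the test. Of 5 fibroblast markers 3 were lower in cold (206 to 354 CPM summed in ctrl, 161 to 233 CPM in cold), and of 4 mural cell markers 2 were lower (417 to 509 CPM, then 278 to 376 CPM). The part of fibroblast and mural cells in the results was not tested. In bulk tissue, fewer cells of a type and less RNA per cell cannot be told apart.

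All 32 genes had enough reads to be tested. In cold, 10 of them were higher and 3 lower (40.6%). Among all 13876 genes tested 31.6% passed the threshold, 16.2% as higher and 15.4% as lower. The threshold was a p under 0.05 from the quasi-likelihood test of edgeR, after Benjamini-Hochberg adjustment over every gene tested, called the edgeR adjusted p below. The genes that rose were Pex7, Pex13, Pex6, Abcd3, Pxmp4, Hsd17b4, Amacr, Pecr, Cat and Agps, and those that fell were Pex11a, Abcd2 and Hacl1. Most changes were small: apart from Abcd2, which fell to 0.284 of its ctrl level, the log2 fold changes of these genes lay between −0.43 and 0.58. In 7 of the 32 the values of the 2 groups did not overlap, and among all genes tested this held for 16.3%. The median log2 fold change was 0.19 over the 32 genes and −0.01 over all genes tested. Scaling by library totals in place of TMM gave 16 higher and 2 lower, and the share of higher genes among all called genes went from 51.3% to 67.3%. Without cold 4, 12 were higher and 8 lower, while the counts over all 14035 genes then tested went from 2246 to 2605 higher and from 2134 to 2481 lower.

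**Figure D1:**
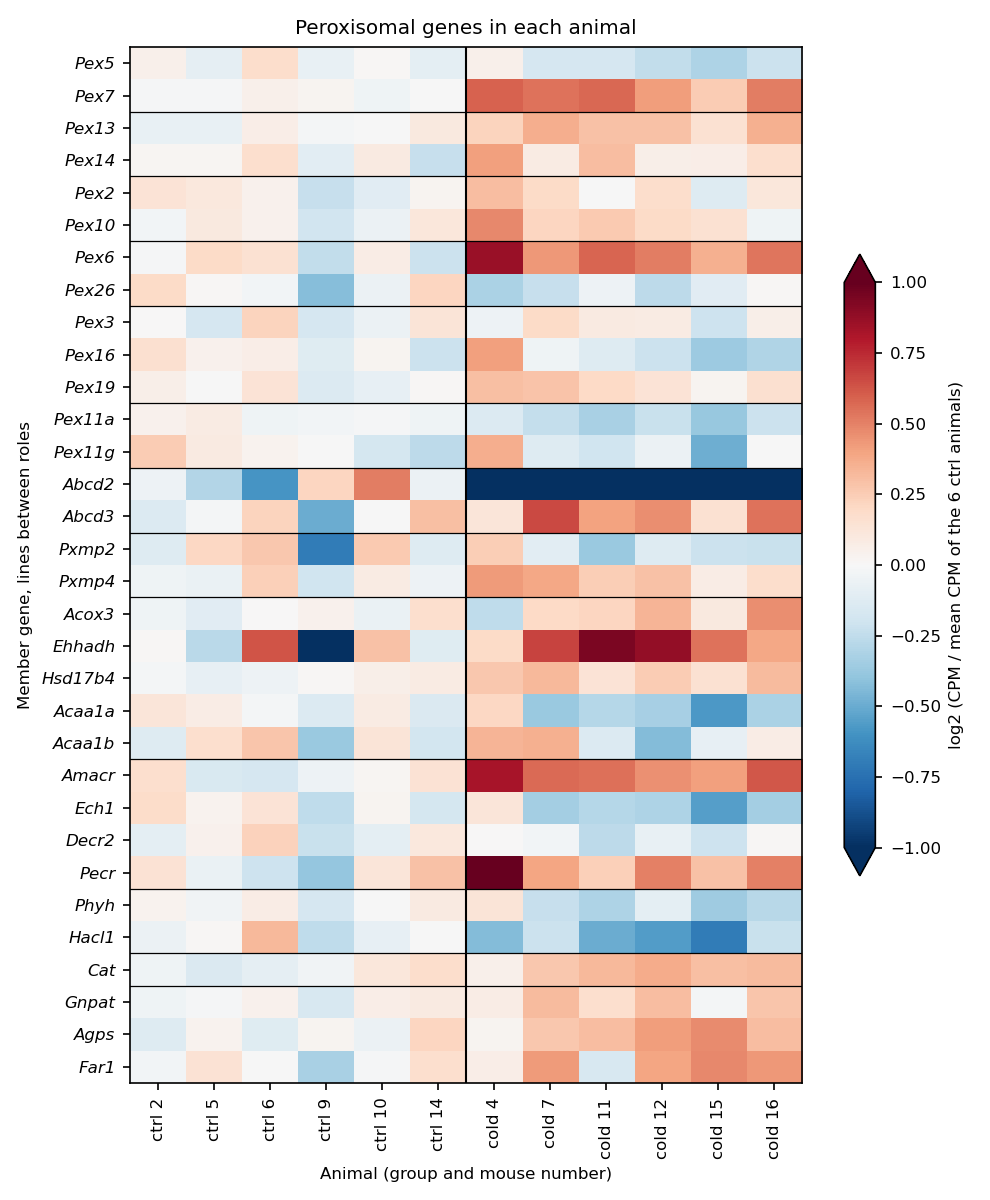
Each row is 1 of the 32 genes and each column 1 animal. Colour gives the log2 ratio of its CPM to the mean of the 6 ctrl animals, cut at −1 and 1. The Abcd2 row is below the ctrl mean in all 6 cold animals, and cold 4 departs from the other cold animals in several rows.

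With all 12 animals, both the Pex genes and the enzymes held more genes that rose than fell, which without cold 4 no longer held for the Pex genes. Of the 13 Pex genes 3 were higher and 1 lower (30.8%), with a median log2 fold change of 0.12. Of the 15 enzymes 5 were higher and 1 lower (40%), with a median of 0.19. The share for the Pex genes is near that of all genes tested (31.6%). These are counts side by side, and the difference between the groups of genes was not tested. Log2 fold changes ran from −0.25 to 0.56 among Pex genes and from −0.43 to 0.63 among enzymes, so each group held genes on both sides. Library totals gave 6 higher and 0 lower for the Pex genes and 8 higher and 1 lower for the enzymes. Without cold 4 the counts were 3 higher and 3 lower for the Pex genes and 7 higher and 4 lower for the enzymes.

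**Figure D2:**
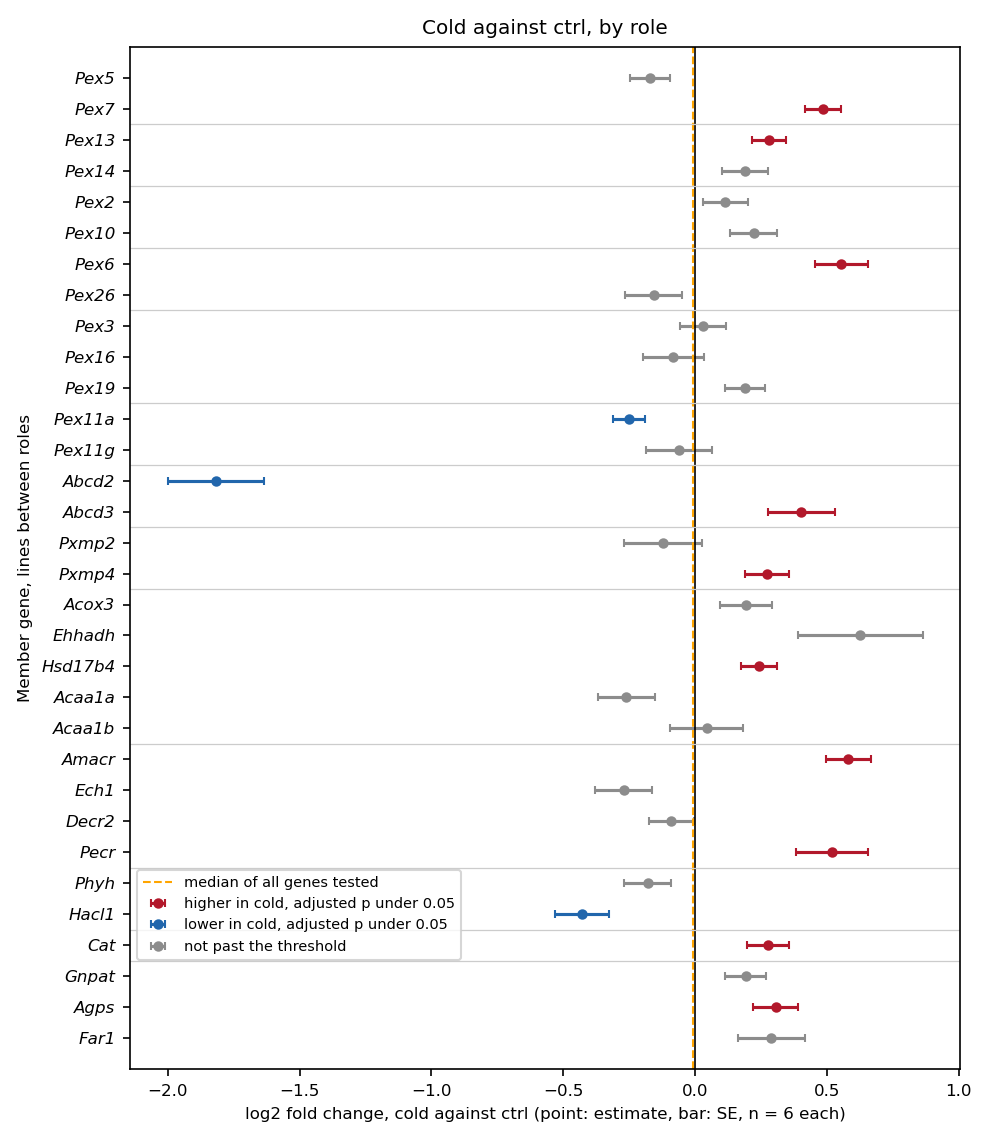
Log2 fold change of cold against ctrl (horizontal axis) with its SE for each of the 32 genes, ordered by role, with genes past the threshold in red (higher) or blue (lower). Abcd2 at −1.82 lies far from the rest, and the dashed line is the median of all genes tested at −0.01.

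The import receptors differed in their values. Pex7, the PTS2 receptor (chr10:19853900-19907689, minus strand, GRCm38), had 36.8, 37.7 and 39.2 CPM as lowest, median and highest value in ctrl and 45.2, 54.6 and 56.9 CPM in cold. The groups did not overlap, and the ctrl animals lay within a narrow band (coefficient of variation 2.25%, the narrowest of the 32). The log2 fold change was 0.49 ± 0.07 (SE, n = 6 and 6; edgeR adjusted p = 4.94e-05). Both of its abundant protein-coding transcripts rose in the test over transcripts, Pex7-201 by 0.57 ± 0.07 (edgeR adjusted p = 0.000232) and Pex7-203 by 0.46 ± 0.09 (edgeR adjusted p = 0.00584) on the log2 scale. Pex5, the PTS1 receptor, had 151 to 182 CPM in ctrl and 130 to 167 CPM in cold, where cold 4 was the highest. Its log2 fold change was −0.17 ± 0.08 (edgeR adjusted p = 0.103), and −0.22 without cold 4 (edgeR adjusted p = 0.0152).

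Pex5 is made in a long and a short form, and the long form is the one known to bind Pex7. The forms Pex5-201 (coding length 1920 bases) and Pex5-202 (1809 bases) differ by 111 bases, or 37 codons, at coding positions 646 to 756, in a coding exon at chr6:124404133-124404243 on the minus strand of GRCm38. The bases present only in the long form are shown because they are the difference on which the share of the 2 forms rests.
Pex5-201 insert: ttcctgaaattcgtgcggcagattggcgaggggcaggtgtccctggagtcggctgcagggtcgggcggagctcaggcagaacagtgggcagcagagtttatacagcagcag
The long form made up 34.6%, 38.9% and 47.5% (lowest, median, highest) of the summed TPM (abundance of a transcript after correction for its effective length, scaled to a fixed total) of the pair in ctrl and 36.9%, 44.7% and 47.2% in cold. The groups overlapped over nearly their whole range. In the test of transcript usage over the whole gene the edgeR adjusted p was 0.895.

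At the docking complex, where the loaded receptor meets the membrane, Pex13 (chr11:23646479-23665959, minus strand) had 107, 112 and 121 CPM in ctrl and 126, 138 and 146 CPM in cold. The groups did not overlap. Its rise was 0.28 ± 0.06 on the log2 scale (SE, n = 6 and 6; edgeR adjusted p = 0.00296), and the transcript Pex13-201 rose by 0.31 ± 0.06 (edgeR adjusted p = 0.00298). Its partner Pex14 had 127 to 167 CPM in ctrl and 155 to 198 CPM in cold, with a log2 fold change of 0.19 ± 0.09 (edgeR adjusted p = 0.107, and 0.0309 with library totals). The RefSeq promoter of Pex13 (GRCm38.p6) holds the letters TGACGTCA, the full cAMP response element, which ends 75 bases before the RefSeq start of the gene. The 48 bases at chr11:23665959-23666006 on the minus strand are shown with these letters in capitals, as an example of the motif searched. The last of these bases is the first base of Pex13 in the GENCODE coordinates given above, which start further upstream than the RefSeq gene.
Pex13 promoter: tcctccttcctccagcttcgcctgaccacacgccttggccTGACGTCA
RefSeq promoters (250 bases before to 50 after the start) were found for 26 of the 32 genes, and 2 of them, Pex11g and Pex13, hold TGACGTCA on either strand, against 1.79% of 32851 promoters. Pex13 rose, whereas Pex11g had a log2 fold change of −0.06 ± 0.12 (edgeR adjusted p = 0.753). The direct repeat read by PPAR and RXR receptors, searched as 2 copies of AGGTCA or of AGGNCA with 1 base between them, was in 0 of the 26 windows, against 0.0396% and 0.381% of all promoters. At shares this low, 0 matches in 26 windows does not set these genes apart. Bases outside the windows were not searched. The CCAAT box was in 12 of the 26 (37.4% of all). Both strands were searched, and a match describes letters only.

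The receptor is then ubiquitinated by the RING subunits and pulled back out by an ATPase. The RING subunits among the 32 genes, Pex2 and Pex10, did not pass the test. Pex2 had 35.7 to 46.0 CPM in ctrl and 38.3 to 52.0 CPM in cold, and Pex10 had 12.7 to 15.6 CPM and 14.1 to 20.2 CPM (edgeR adjusted p = 0.341 and 0.0736). The edgeR adjusted p of Pex10 was 0.0346 without cold 16 and 0.0221 with library totals. Pex10 did not pass under the other 20 of 22 alternative analyses. Pex6, an ATPase of the export complex (chr17:46711463-46725541, plus strand), had 140, 170 and 190 CPM in ctrl and 212, 239 and 302 CPM in cold, with cold 4 the highest. The groups did not overlap. On the log2 scale the rise was 0.56 ± 0.10 (SE, n = 6 and 6; edgeR adjusted p = 0.000493), carried by Pex6-201 (0.62 ± 0.11, edgeR adjusted p = 0.00259). Pex26, which anchors this complex in the membrane, had 8.96 to 13.9 CPM in ctrl and 9.63 to 12.1 CPM in cold (edgeR adjusted p = 0.304).

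The 3 genes for insertion of membrane proteins did not pass the test. Pex19, the soluble chaperone of membrane proteins, was the closest, with 211 to 256 CPM in ctrl and 237 to 286 CPM in cold (log2 fold change 0.19 ± 0.07, edgeR adjusted p = 0.0632). It passed without ctrl 6 (0.0406), without cold 15 (0.0369), with a skeletal muscle score in the fit (0.0202), with library totals (0.00937) and in DESeq2 (0.0160), all adjusted p. Pex19 did not pass under the other 17 of 22 alternative analyses. Its docking receptor Pex3 had 44.8 to 58.8 CPM in ctrl and 43.6 to 57.5 CPM in cold. Pex16, which recruits Pex3, had 103 to 134 CPM in ctrl and 93.3 to 159 CPM in cold, where cold 4 stood far above the next animal at 116 CPM. Without cold 4 its log2 fold change was −0.20 (edgeR adjusted p = 0.0483), against −0.08 with it (edgeR adjusted p = 0.634).

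Of the genes for elongation and division of the organelle, Pex11a fell. Pex11a (chr7:79735957-79743131, minus strand), which shapes the membrane before division and is a known target of PPARα in liver, had 72.3, 73.6 and 78.7 CPM in ctrl and 57.4, 63.5 and 67.6 CPM in cold. The groups did not overlap. The log2 fold change was −0.25 ± 0.06 (SE, n = 6 and 6; edgeR adjusted p = 0.00523). It was −0.16 with library totals (edgeR adjusted p = 0.0992) and −0.08 with effective length as an offset (edgeR adjusted p = 0.590). Among its transcripts, the retained-intron form Pex11a-204 fell from 2.94 ± 0.79 to 1.05 ± 0.39 CPM (SD, n = 6), a log2 fold change of −1.48 ± 0.31 (edgeR adjusted p = 0.00905) with groups that did not overlap. The protein-coding Pex11a-201, at 68.8 ± 2.75 and 60.1 ± 4.81 CPM, did not pass (−0.20 ± 0.06, edgeR adjusted p = 0.0684). Pex11g had 13.0 to 18.6 CPM in ctrl and 11.1 to 20.0 CPM in cold (edgeR adjusted p = 0.753).

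The ABC transporters that bring acyl-CoA into the organelle moved in opposite directions. Abcd2 (chr15:91145871-91191799, minus strand), a transporter of very long-chain and polyunsaturated acyl-CoA, had 33.1, 47.9 and 71.0 CPM in ctrl and 10.6, 13.6 and 18.4 CPM in cold. The lowest ctrl animal was above the highest cold animal. Abcd2 fell by 1.82 ± 0.18 on the log2 scale (SE, n = 6 and 6; edgeR adjusted p = 5.43e-06), and Abcd2-201 fell by 1.79 ± 0.20 (edgeR adjusted p = 0.000153).

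Abcd3 (chr3:121758774-121815302, minus strand), which carries branched-chain, long-chain and dicarboxylic acyl-CoA and is the most abundant of the 4 membrane proteins per length, had 376, 524 and 650 CPM in ctrl and 574, 713 and 835 CPM in cold. The groups overlapped, and the log2 fold change was 0.40 ± 0.13 (SE, n = 6 and 6; edgeR adjusted p = 0.0228). The edgeR adjusted p was 0.0505 without ctrl 2, 0.0609 without cold 7 and 0.0512 without cold 16. Per length, Abcd3 stood at 10.8, 18.9 and 30.8 times Abcd2 (lowest, median, highest animal) in ctrl and at 58.8, 85.3 and 114 times Abcd2 in cold. The ratios of the groups did not overlap.

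Of the 2 further membrane proteins, Pxmp4 had 58.6, 65.0 and 79.3 CPM in ctrl and 70.8, 80.9 and 90.3 CPM in cold. The groups overlapped, and the log2 fold change was 0.27 ± 0.08 (SE, n = 6 and 6; edgeR adjusted p = 0.0192). Pxmp2, a channel for small solutes, had 10.4 to 20.3 CPM in ctrl and 13.0 to 19.9 CPM in cold (edgeR adjusted p = 0.572).

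**Figure D3:**
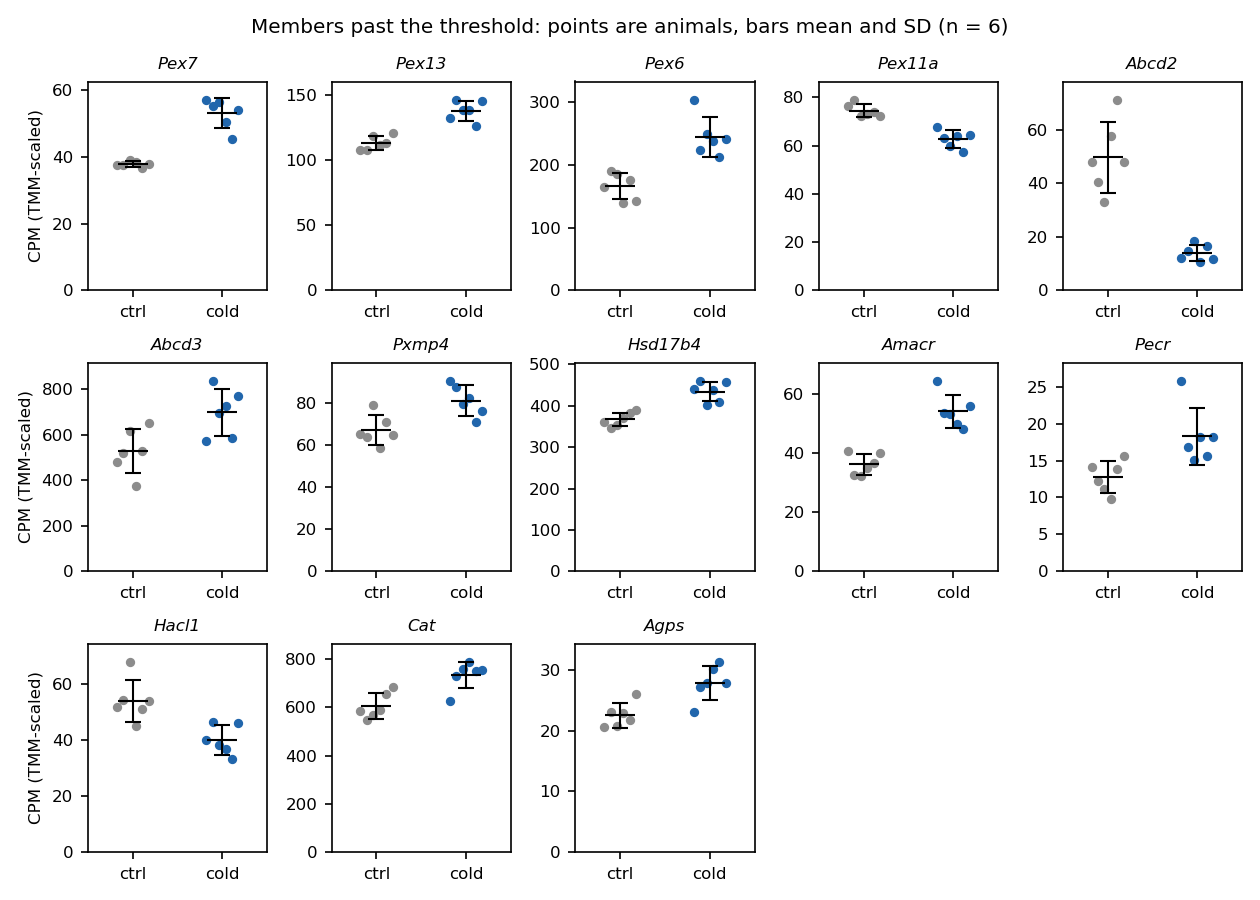
CPM in each animal (points) with mean and SD (bars, n = 6) for the 13 genes past the threshold, each panel with its own axis from 0. The groups do not overlap in the panels of Pex7, Pex13, Pex6, Pex11a, Abcd2, Hsd17b4 and Amacr, and overlap in the other 6.

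In the core of beta-oxidation 1 of 5 enzymes passed the test. Hsd17b4, the D-bifunctional protein that serves branched and very long-chain substrates, had 346, 365 and 389 CPM in ctrl and 402, 439 and 458 CPM in cold. The groups did not overlap, although the rise was small, with a log2 fold change of 0.24 ± 0.07 (SE, n = 6 and 6; edgeR adjusted p = 0.0120). Its transcript Hsd17b4-201 rose by 0.27 ± 0.06 (edgeR adjusted p = 0.00937). Ehhadh, the L-bifunctional enzyme that acts mainly on dicarboxylic and straight chains, had the highest fold estimate of the 32 genes but also the widest spread in ctrl (coefficient of variation 36.5%). It had 111, 227 and 365 CPM in ctrl and 269, 361 and 453 CPM in cold, and the groups overlapped. Its log2 fold change was 0.63 ± 0.24 (edgeR adjusted p = 0.0623). The edgeR adjusted p was 0.0141 without ctrl 6, 0.0480 without ctrl 9 and 0.0356 with library totals, and DESeq2 gave an adjusted p of 0.0318. Ehhadh did not pass under the other 18 of 22 alternative analyses. Acox3, an acyl-CoA oxidase for branched substrates, had 47.9 to 58.3 CPM in ctrl and 43.5 to 71.6 CPM in cold, with cold 4 the lowest. Its log2 fold change was 0.19 ± 0.10 (edgeR adjusted p = 0.156), and 0.27 without cold 4 (edgeR adjusted p = 0.00823).

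The thiolases Acaa1a and Acaa1b, which cleave the shortened chain and enter the organelle by PTS2, share much of their sequence. Over 1275 coding bases 1231 are identical (96.5%), and 38.1% of all windows of 50 bases (the read length) in the coding sequence of each also occur in that of the other. Reads were paired, and a pair with both reads in such windows can be assigned to either gene, so the separate values are uncertain. The share of such pairs was not computed. The 60 coding bases at positions 259 to 318 hold 11 differences, in capitals, and are shown because such bases are what tells the genes apart. They cross a splice junction, within chr9:119341912-119342775 (plus strand) for Acaa1a and chr9:119155750-119156597 (minus strand) for Acaa1b.
Acaa1a: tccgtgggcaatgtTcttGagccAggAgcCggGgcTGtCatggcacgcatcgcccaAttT
Acaa1b: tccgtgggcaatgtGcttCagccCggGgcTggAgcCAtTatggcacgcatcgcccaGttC
Acaa1a had 155 to 187 CPM in ctrl and 115 to 197 CPM in cold, where cold 4 stood above the next animal at 141 CPM. For Acaa1a the log2 fold change was −0.26 ± 0.11 (edgeR adjusted p = 0.0797), and −0.37 without cold 4 (edgeR adjusted p = 0.000827). Acaa1b had 48.9 to 76.4 CPM in ctrl and 46.7 to 80.6 CPM in cold (edgeR adjusted p = 0.845). Summed, which avoids the split between the 2, the log2 fold change was −0.17 ± 0.11 (edgeR adjusted p = 0.240).

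Among 4 auxiliary enzymes that act on acyl-CoA, 2 rose. Amacr, the racemase that turns branched acyl-CoA into the form the oxidases accept (chr15:10981756-10996626, plus strand), had 32.3, 35.9 and 40.7 CPM in ctrl and 48.0, 53.4 and 64.2 CPM in cold. The groups did not overlap. Its rise on the log2 scale was 0.58 ± 0.09 (SE, n = 6 and 6; edgeR adjusted p = 7.61e-05), and Amacr-201 rose by 0.62 ± 0.10 (edgeR adjusted p = 0.00133). Pecr, a trans-2-enoyl-CoA reductase, had 9.76, 13.0 and 15.7 CPM in ctrl and 15.1, 17.5 and 25.7 CPM in cold. The groups overlapped and cold 4 stood above the next animal at 18.1 CPM, with a log2 fold change of 0.52 ± 0.14 (SE, n = 6 and 6; edgeR adjusted p = 0.00816).

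Ech1, a dienoyl-CoA isomerase found in peroxisomes and mitochondria, was the most abundant of the 32 genes per length in both groups. It had 834, 1015 and 1127 CPM in ctrl and 678, 793 and 1079 CPM in cold, with cold 4 the highest of the cold animals and the next at 816 CPM. The log2 fold change was −0.27 ± 0.11 (edgeR adjusted p = 0.0680). The gene passed without cold 4 (−0.36, edgeR adjusted p = 0.00294), without ctrl 9 (0.0390), with a minimum count of 50 (0.0474) and in DESeq2 (0.0447), all adjusted p. Ech1 did not pass under the other 18 of 22 alternative analyses. Decr2, a dienoyl-CoA reductase, had medians of 48.2 CPM in ctrl and 47.4 CPM in cold (edgeR adjusted p = 0.457).

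In alpha-oxidation, the path that removes 1 carbon from phytanic acid, the enzymes had negative fold estimates and 1 of the 2 passed. Hacl1, the lyase that cleaves 2-hydroxyacyl-CoA (chr14:31598730-31641286, minus strand), had 45.3, 53.0 and 67.8 CPM in ctrl and 33.3, 39.2 and 46.6 CPM in cold. The groups overlapped narrowly, and the log2 fold change was −0.43 ± 0.10 (SE, n = 6 and 6; edgeR adjusted p = 0.00418). Of the windows of 50 bases in its transcript Hacl1-202, 79.8% also occur in the gene model Gm49387, which had reads in ctrl 10 alone (0.804 CPM). The windows of Hacl1-201 were not searched. Hacl1-201 had means of 26.4 CPM in ctrl and 20.2 CPM in cold, against 17.4 and 13.1 CPM for Hacl1-202. Phyh, the hydroxylase that starts the path and enters by PTS2, had 360 to 430 CPM in ctrl and 316 to 443 CPM in cold, with cold 4 the highest. Its log2 fold change was −0.18 ± 0.09 (edgeR adjusted p = 0.139), and −0.25 without cold 4 (edgeR adjusted p = 0.00971).

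Cat, the catalase that breaks down hydrogen peroxide (chr2:103453849-103485160, minus strand), had 546, 588 and 685 CPM in ctrl and 627, 751 and 785 CPM in cold. Its lowest cold value was that of cold 4, with the next at 729 CPM, and the groups overlapped. The log2 fold change was 0.28 ± 0.08 (SE, n = 6 and 6; edgeR adjusted p = 0.0146), and 0.26 with an edgeR adjusted p of 0.0546 without both ctrl 2 and cold 15. The transcript Cat-201 rose by 0.30 ± 0.07 (edgeR adjusted p = 0.0213).

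For ether lipid synthesis the 3 fold estimates were positive and 1 gene passed. Agps, the alkylglycerone phosphate synthase, which enters by PTS2 (chr2:75832177-75931350, plus strand), had 20.6, 22.3 and 26.1 CPM in ctrl and 23.0, 27.8 and 31.2 CPM in cold. The groups overlapped, and the log2 fold change was 0.31 ± 0.09 (SE, n = 6 and 6; edgeR adjusted p = 0.0124). The edgeR adjusted p was 0.0699 without both ctrl 2 and cold 15 and 0.322 with effective length as an offset, and Agps-201 rose by 0.34 ± 0.09 (edgeR adjusted p = 0.0315). Gnpat, the acyltransferase of the first step, had 209 to 249 CPM in ctrl and 231 to 291 CPM in cold (0.19 ± 0.08, edgeR adjusted p = 0.0768). It passed without cold 4 (0.0316), without cold 15 (0.0377), with library totals (0.0227) and in DESeq2 (0.0338), all adjusted p. Gnpat did not pass under the other 18 of 22 alternative analyses. Of the windows of 50 bases in its main transcript, 7.87% also occur in another gene model, Gm16163. Far1, which makes the fatty alcohol used by Agps, had 5.42 to 7.64 CPM in ctrl and 6.09 to 9.44 CPM in cold (0.29 ± 0.13, edgeR adjusted p = 0.0968, 0.0290 without cold 11 and 0.0435 with library totals). Far1 did not pass under the other 20 of 22 alternative analyses.

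Levels can be set beside each other once divided by effective length. In ctrl, Ech1 stood at 870 CPM per kilobase, Phyh at 339, Cat at 251, Abcd3 at 203 and Hsd17b4 at 150 CPM per kilobase. In cold the same 5 genes led, with Cat at 304 above Phyh at 299 CPM per kilobase. The most abundant Pex gene was Pex19, at 134 CPM per kilobase in ctrl and 153 in cold. The docking and receptor genes Pex14, Pex5 and Pex13 lay between 48.8 and 69.4 CPM per kilobase in ctrl. At the low end were Far1 and Pex26, at 2.66 and 3.43 CPM per kilobase in ctrl, and Abcd2 moved in rank from 27 of 32 in ctrl to 30 in cold.

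**Figure D4:**
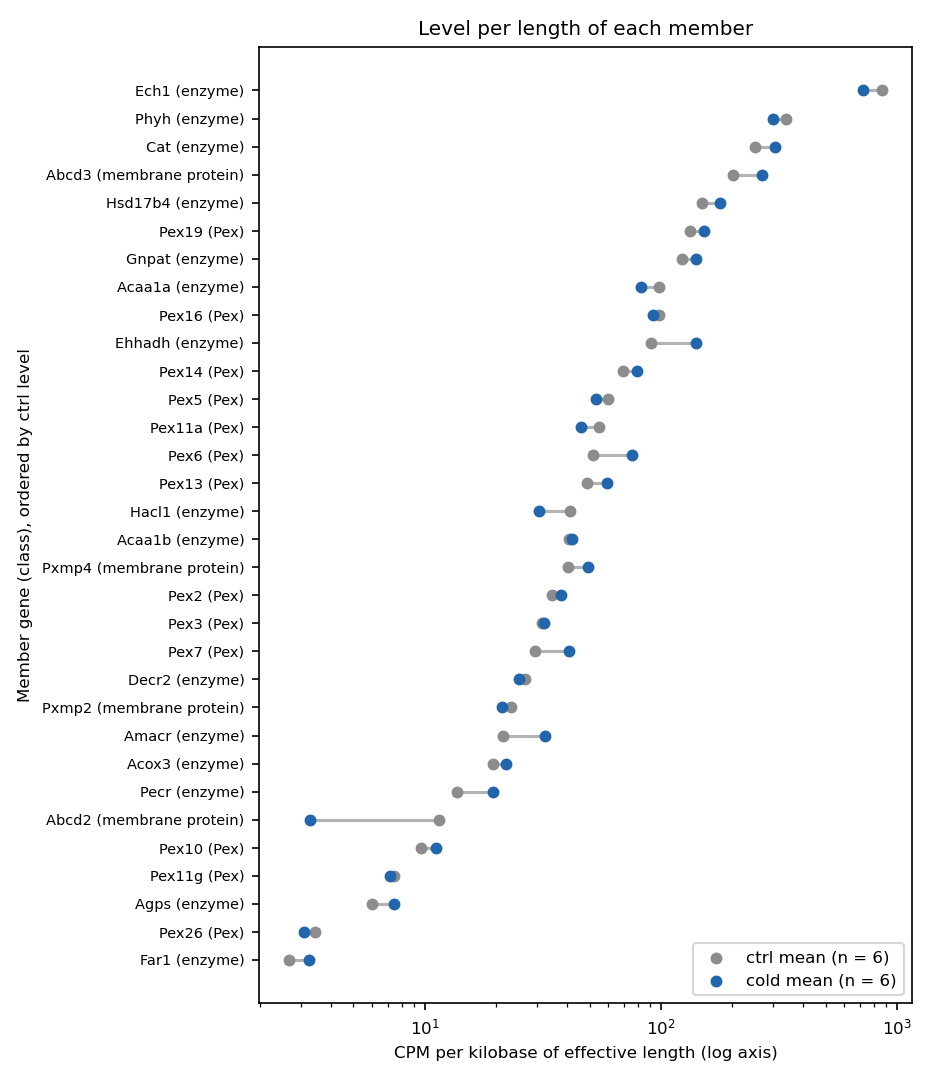
Mean level per length (CPM per kilobase of effective length, log axis) of the 32 genes in ctrl (grey) and cold (blue, n = 6 each), ordered by the ctrl level. Enzymes lead the order with Ech1, and the longest line between the 2 groups belongs to Abcd2.

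At the level of transcripts, 89 of the 172 annotated transcripts of these genes had enough reads, and 8 were higher and 2 lower, against 10.3% of 30345 transcripts that passed in either direction. Those 10 are named with their genes above. Transcript usage could be tested in 24 of the 32 genes, and 1 passed, against 1.45% of 7233 genes. That gene was Ech1 (edgeR adjusted p = 0.0106). Its retained-intron transcript Ech1-206 made up 0.0652%, 0.163% and 1.33% of the gene's TPM in ctrl (lowest, median, highest) and 0.896%, 1.81% and 4.65% in cold, with cold 4 the highest, and the groups overlapped. The protein-coding Ech1-201 held 97.5% ± 1.84 of the gene in ctrl and 95.3% ± 3.77 in cold (SD, n = 6). Another transcript, Ech1-204, had 4.96% in ctrl 6 and 6.40% in cold 4 and was listed at 0 in the other 10 animals. The edgeR adjusted p for usage was 0.0539 with Simes' method and 0.0520 without cold 4.

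**Figure D5:**
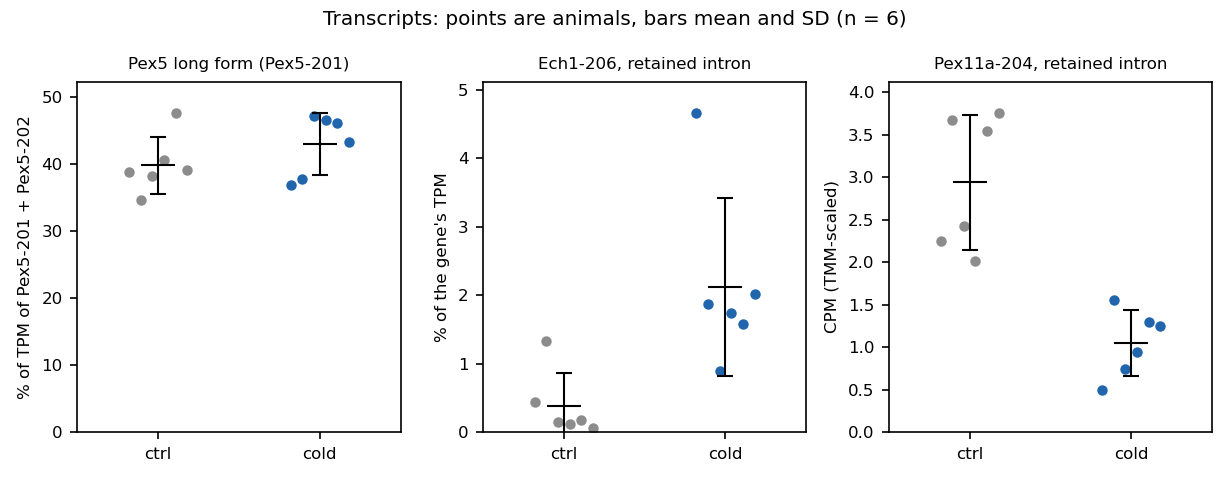
Left, share of the long Pex5 form in the TPM of both forms. Middle, share of Ech1-206 in the TPM of its gene. Right, CPM of Pex11a-204. Points are animals and bars mean and SD (n = 6); the groups overlap on the left and in the middle and not on the right.

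A longer list of 61 peroxisomal genes outside these 32 gives the surroundings. Of them 52 had enough reads, and 23 were higher and 5 lower (53.8%), with a median log2 fold change of 0.17, against 31.6% called and a median of −0.01 over all genes tested. Acox2, an acyl-CoA oxidase for branched substrates, with means of 3.01 and 3.81 CPM, did not pass (edgeR adjusted p = 0.315). Scp2, whose longer product is the thiolase for branched chains, rose by 0.72 ± 0.09, and Lonp2, the peroxisomal Lon protease, by 0.42 ± 0.07 (edgeR adjusted p = 1.06e-05 and 0.000213).

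The 4 largest rises named from this list were those of a carrier, an acyl-CoA synthetase and 2 thioesterases. Slc25a17, the peroxisomal carrier of CoA and other nucleotides, went from 130 ± 11.8 to 298 ± 10.6 CPM, Slc27a2, a very long-chain acyl-CoA synthetase, from 242 ± 69.8 to 526 ± 42.8 CPM, and the thioesterase Acot8 from 22.6 ± 4.51 to 49.6 ± 3.43 CPM (SD, n = 6). Their log2 fold changes were 1.20 ± 0.08, 1.12 ± 0.16 and 1.13 ± 0.11 (edgeR adjusted p = 1.79e-08, 0.000105 and 1.20e-06). Acot5, a thioesterase from a cluster of similar genes, rose from 0.668 ± 0.413 to 7.93 ± 1.40 CPM (3.50 ± 0.30, edgeR adjusted p = 6.54e-07). Crat, the acetyltransferase that moves short chains to carnitine in mitochondria and peroxisomes, rose by 0.36 ± 0.07 (edgeR adjusted p = 0.00141). Crot, the carnitine octanoyltransferase, stood at 33.3 ± 6.68 and 38.6 ± 3.07 CPM (edgeR adjusted p = 0.167). The named falls were Acbd4, an acyl-CoA binding protein (−0.87 ± 0.07, edgeR adjusted p = 2.26e-07) and Zadh2 (−0.35 ± 0.09, edgeR adjusted p = 0.00872).

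Of 9 nuclear receptors and coactivators known to act on peroxisomal genes, 2 rose and 0 fell (22.2%, against 31.6% of all genes tested). Ppargc1a, the coactivator PGC-1α, went from 53.7 ± 8.60 to 316 ± 73.3 CPM (SD, n = 6; log2 fold change 2.55 ± 0.16, edgeR adjusted p = 3.08e-08), and Ppard from 38.4 ± 3.01 to 49.1 ± 5.21 CPM (0.36 ± 0.08, edgeR adjusted p = 0.00313). Neither gene's groups overlapped. Ppara had 70.9 to 124 CPM in ctrl and 54.7 to 136 CPM in cold, and Pparg 168 to 218 and 186 to 225 CPM (edgeR adjusted p = 0.432 and 0.297). Rxra, Rxrb, Rxrg, Ppargc1b and Prdm16 had log2 fold changes between −0.16 and 0.17 and did not pass.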

How the data were processed

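Poly(A) RNA of 12 animals was sequenced with 50 nt paired-end, strand-specific reads, per the labels' protocols. The tools bcl2fastq, cutadapt and Salmon and the build GRCm38 are named, without versions, in the submitters' processing notes. The sources used here do not give the annotation release. The deposited files hold, per transcript, estimated counts of reads (not normalized) and TPM, per the file headers, with an effective length. Of 140658 transcripts, 140137 were tied by identifier to GENCODE M21 (GRCm38), and the 521 others (0.0866% to 0.152% of reads) were left out.

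Estimated counts were summed per gene and rounded. Genes past edgeR's expression filter (minimum count 10) were scaled by TMM and tested, two-sided, with edgeR 4.0.16 quasi-likelihood in R 4.3.3 (6 against 6, no covariate). CPM are TMM-scaled. The biological coefficient of variation was 20.6%. The same test was run on 30345 transcripts, and transcript usage with edgeR's diffSpliceDGE. Deposited TPM were used only for shares within a gene, since in ctrl 2 transcripts with an effective length under 50 bases held 55.2% of TPM (2.36% to 8.42% in the others). The gene and transcript tests were also run on simulated counts with known changes. Changes of 1.5, 2 and 4 fold were given to 65, 63 and 72 of 13696 genes. The gene test recovered 47.7%, 82.5% and 91.7% of them, with 6 false calls. For transcripts the changes were given to 62, 68 and 70 of 27584. The transcript test recovered 1.61%, 10.3% and 34.3%, with 1 false call. In the data a larger share passed (31.6% of genes, 10.3% of transcripts). The adjustment was thus stricter in the simulation, and these rates do not give the recovery in the data. A gene or transcript that did not pass is not shown to be unchanged.

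The labels do not say that animals were handled apart, so p-values set the group difference against the spread between these animals only. The genes, lists and tests were chosen with earlier results of these data known. Genes past the threshold are given in full. From the longer list, the 4 largest rises and 4 largest falls are named, if the mean log2 CPM reached 2, with 8 fixed genes, and all 9 regulators. Some genes under this rule are not reported here. Alternatives were other scalings, filters, tools (limma 3.58.1, DESeq2 1.42.0), a muscle covariate and leaving out animals. Protein sequences were not used here.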

Additional observations from a re-analysis of the deposited data

Results flagged for a closer look

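In 9 of 112 groups of 6 animals (a gene in ctrl or in cold), the highest or lowest animal stood apart from the other 5 by Dixon's test at the 95% level, which chance gives in about 1 in 20 groups. Of these 9, 7 were the animal cold 4, which also gave all 6 found in the 64 groups of the 32 genes. Cold 4 was the highest of the cold animals for Pex5 (167 CPM, the next 144), Pex16 (159 CPM, the next 116), Acaa1a (197 CPM, the next 141), Ech1 (1079 CPM, the next 816) and Pecr (25.7 CPM, the next 18.1), and the lowest for Cat (627 CPM, the next 729). It was also the highest for the regulator Rxrg (44.1 CPM, the next 38.3). In ctrl, ctrl 6 was the highest for Acot8 (31.3 CPM, the next 22.1) and ctrl 9 the lowest for Slc25a17 (108 CPM, the next 127). The library of cold 4 was the deepest. Its summed adipocyte markers (33261 CPM) and red blood cell markers (1364 CPM) were the highest of the cold group. Its endothelial markers (669 CPM) and mural cell markers (278 CPM) were the lowest of that group. The part of these in the values of cold 4 was not tested.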

How the results depend on the processing

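Of the 13 genes past the threshold, 9 kept their direction and passed under all 22 alternatives (Pex7, Pex13, Pex6, Abcd2, Pxmp4, Hsd17b4, Amacr, Pecr and Hacl1). Among genes not past it, Pex5, Pex14, Pex16, Acox3 and Phyh each passed under 1 of the 22, and Acaa1a under 1 of 23. Leaving out 1 animal at a time gave 9 to 12 higher and 3 to 8 lower among the 32 genes, 1 to 3 lower Pex genes, 5 to 7 higher and 1 to 4 lower enzymes, 2023 to 2605 higher and 1836 to 2481 lower among all genes, and 72 to 229 genes (0 to 1 of the 32) in the usage test. Library totals gave 16 higher of the 32, 6 higher and 0 lower Pex genes, 8 higher enzymes, 14 higher transcripts and 1409 lower genes in all. A minimum count of 50 and DESeq2 each gave 2 lower enzymes, effective length as an offset gave 0 lower Pex genes, and leaving out ctrl 2 and cold 15 gave 3 higher enzymes. For usage, Simes' method gave 16 genes (0 of the 32), limma's diffSplice 224 (2 of the 32) and leaving out cold 4, chosen after seeing the data, 229 (0 of the 32). Reversed estimates, none past the threshold, were Pex3 (−0.00105 to 0.0801 without 1 animal; negative without ctrl 5, ctrl 9 or cold 7), Pex16 (0.00609 with library totals, 0.00329 without ctrl 2 and cold 15), Pex11g (0.0271 with library totals, 0.0138 with the muscle score, −0.164 to 0.0134 without 1 animal, positive without cold 15, 0.0671 without ctrl 2 and cold 15), Acaa1b (−0.0239 to 0.125 without 1 animal, negative without ctrl 9, cold 4 or cold 7, −0.172 summed with Acaa1a) and Decr2 (7.85e-05 with library totals). The cause was not tested. No paired analysis was possible because the mouse numbers differ between the groups. Depth limits Far1 and Pex26 most, with 95 to 220 and 157 to 300 reads per library.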
